A study of Mus musculus with 9 samples.

Results

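The genes described here are 9 genes of the myelin that oligodendrocytes lay down in the central nervous system: Mbp, Mobp, Mog, Mag, Cnp, Mal, Cldn11, Opalin and Ermn. They were chosen by gene name, and each of the 9 was found once among the 34745 genes of the deposited expression table. RNA had been sequenced from mouse spinal cord in a study of complete transection at the ninth thoracic segment (T9), with 3 libraries at 0 days (titled N), 3 at 3 days and 3 at 21 days after injury. The labels give no sham group, strain, sex, age or length of cord taken. They do not say whether day 0 cords had been cut, or whether each library of a day is a different animal. The p-values therefore rest on the variation among these libraries, which may be technical.

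Oligodendrocytes wrap axons in many turns of membrane. Basic proteins press the cytoplasmic faces of the sheath together, adhesion molecules hold it to the axon, and tight junction strands seal its edges. The genes are turned on late in the lineage, with the transcription factors Sox10 and Myrf as known activators. Spinal cord injury is known to kill oligodendrocytes and to be followed by division of their precursors. Some of the 9 genes are also used outside the oligodendrocyte: Mbp, Mag, Cnp and Mal by Schwann cells of peripheral nerve, and Cldn11 by cells of the meninges. In bulk cord, fewer cells of a type and less RNA per cell cannot be told apart.

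The promoters of 4 members are shown because these genes went different ways after injury: Opalin and Mog had the largest falls at day 3, Cldn11 was the member that rose, and the level of Mobp moved little. Each is the 250 bases before the RefSeq start site (GRCm38.p6), written 5′ to 3′ on the gene's own strand: chr19:41077114-41077363 (minus) for Opalin, chr17:37023399-37023648 (minus) for Mog, chr9:120149492-120149741 (plus) for Mobp and chr3:31149670-31149919 (plus) for Cldn11. Capitals mark matches, on either strand, to a Myrf core (CTGGCAC or CTGGTAC) or a Sox core (ACAAAG or ACAATG).
Opalin: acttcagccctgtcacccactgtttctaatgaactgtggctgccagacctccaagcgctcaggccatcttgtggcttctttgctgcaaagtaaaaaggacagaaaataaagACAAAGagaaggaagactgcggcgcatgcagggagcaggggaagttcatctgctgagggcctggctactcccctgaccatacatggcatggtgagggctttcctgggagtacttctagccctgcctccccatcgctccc
Mog: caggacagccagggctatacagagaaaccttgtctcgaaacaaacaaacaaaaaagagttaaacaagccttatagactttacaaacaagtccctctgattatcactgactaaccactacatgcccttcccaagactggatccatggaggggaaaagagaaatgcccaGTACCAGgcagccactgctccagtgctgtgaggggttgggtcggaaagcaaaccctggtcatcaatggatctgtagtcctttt
Mobp: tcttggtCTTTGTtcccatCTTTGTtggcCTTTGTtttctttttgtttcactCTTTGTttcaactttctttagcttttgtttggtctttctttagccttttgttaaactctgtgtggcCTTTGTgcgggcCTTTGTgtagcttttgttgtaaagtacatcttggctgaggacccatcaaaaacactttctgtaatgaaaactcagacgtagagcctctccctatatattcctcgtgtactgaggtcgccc
Cldn11: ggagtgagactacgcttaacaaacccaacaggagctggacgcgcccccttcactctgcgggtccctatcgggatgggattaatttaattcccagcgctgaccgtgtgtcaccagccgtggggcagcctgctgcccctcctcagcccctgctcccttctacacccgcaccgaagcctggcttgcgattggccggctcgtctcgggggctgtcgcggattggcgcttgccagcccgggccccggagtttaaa

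The Mobp window held 6 Sox matches, all as CTTTGT, the core read on the other strand. Opalin held 1 Sox match, Mog held 1 Myrf match, and Cldn11 held neither core. The RefSeq promoter table matched 8 of the 9 members, all but Mbp. A Sox core lay in the first promoter of 5 of those 8 (Mag, Mobp, Cnp, Opalin and Ermn), and 25.2% of all 32851 promoters in the table held one in the same window. A Myrf core lay in 3 of 8 (Mog, Mag and Cnp), against 5.93% of all promoters. The E-box CAGCTG, whose last letters can overlap the first of the Myrf core, and the TATA box TATAAA lay in 0 of 8 each, against 13% and 12.4% of all promoters. Mal, like Cldn11, held no core of either kind. A match is a run of letters, not a measured binding site, and a link between these motifs and the changes after injury was not tested.

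In build GRCm38, as the deposited loci give them, the basic protein genes lie on chromosome 18 (Mbp, 82475146 to 82585637, plus strand) and chromosome 9 (Mobp, 120149742 to 120181484, plus strand). Mog lies on chromosome 17 (37010743 to 37023398, minus strand), Mag on chromosome 7 (30899176 to 30914873, minus strand) and Cnp on chromosome 11 (100574904 to 100591729, plus strand). Mal and Ermn share chromosome 2 (127633226 to 127656695 and 58045113 to 58052864, both on the minus strand). Cldn11 lies on chromosome 3 (31149920 to 31164324, plus strand) and Opalin on chromosome 19 (41062474 to 41077113, minus strand). Exon bases shared with another gene made up 6.52% of Ermn (Galnt5, opposite strand), 4.23% of Cnp (Dnajc7, opposite strand) and 1.15% of Mobp (Gm38642). The other 6 members shared no exon base in GENCODE M21, whose loci for Mobp and Opalin differ from the deposited ones.

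At day 0 the 9 genes spanned a wide range of levels in FPKM, the counts scaled to gene length and to the library's total. Mobp, a small basic protein of compact myelin, stood highest at 629 ± 3.29 FPKM (SD, n = 3 here and in all means below). Cldn11 (295 ± 24.6), Mbp (255 ± 72.3), Mal (205 ± 21.8), Cnp (179 ± 32.7), Mog (140 ± 39.8) and Mag (119 ± 12.9) followed in FPKM. Ermn (50.6 ± 1.38) and Opalin (35.5 ± 1.48), members of late maturation, stood lowest. The libraries of Mobp, Ermn and Opalin did not overlap in FPKM with those of any other member, whereas each neighbouring pair from Cldn11 down to Mag overlapped. The order between genes depends on the gene length: the deposited FPKM imply 16100 bases for Mbp, against 8469 exon bases in GENCODE M21, and 1838 for Opalin, against 2946. At day 3 the order was the same in mean FPKM except that Mag (88.3) and Mog (85.2) changed places, and these were the only neighbours that overlapped. At day 21 the day 0 order held in mean FPKM with Opalin last at 38.1, and again each neighbouring pair from Cldn11 down to Mag overlapped while Mobp, Ermn and Opalin stood clear of their neighbours.

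**Figure D1:**
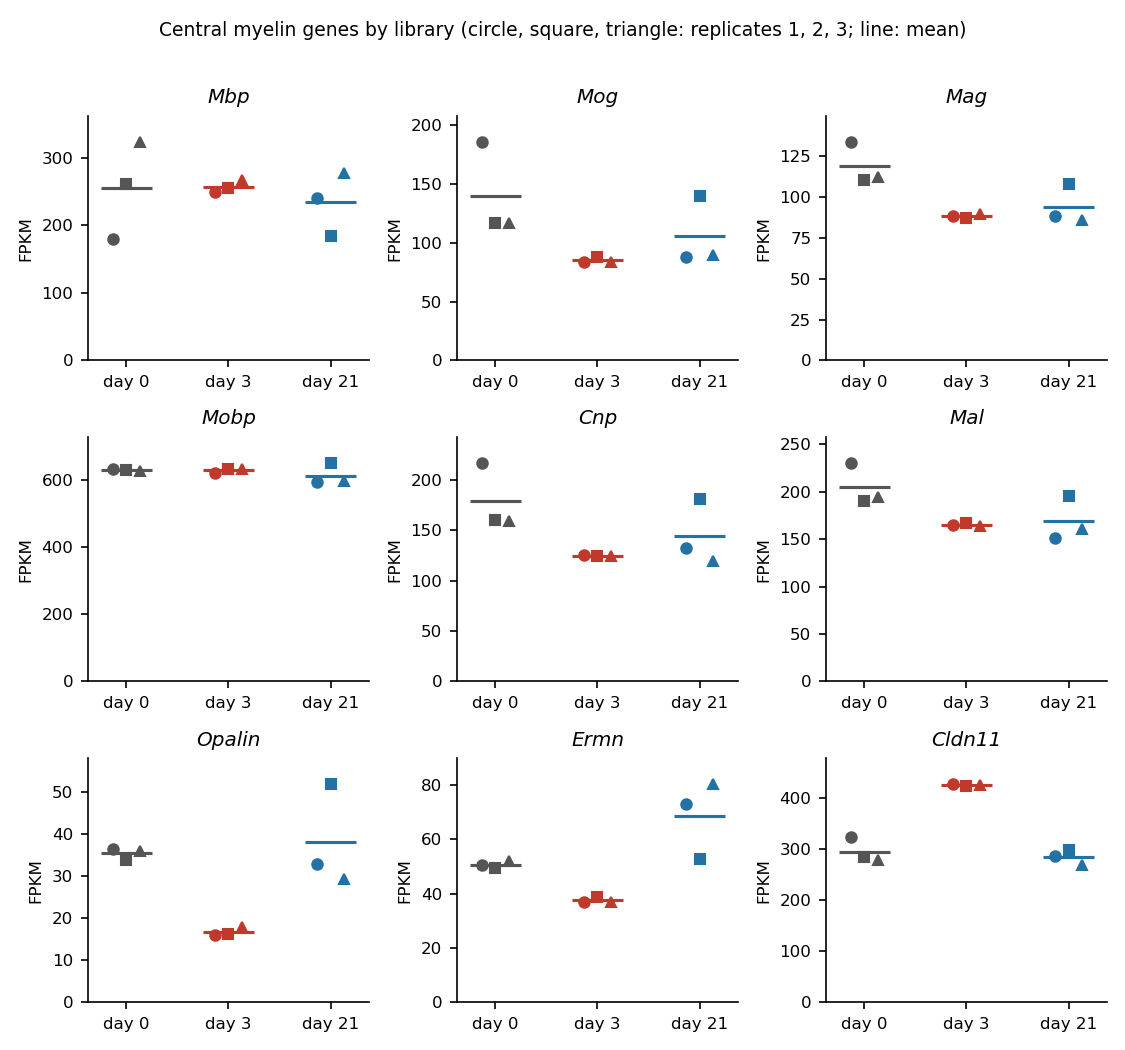
FPKM of each central myelin gene in each library at day 0 (grey), day 3 (red) and day 21 (blue), with circles, squares and triangles for replicates 1, 2 and 3 and a line at the mean of 3 libraries; every vertical axis starts at 0. Opalin goes from 33.9 to 36.6 at day 0 to 16.1 to 18.02 at day 3, Cldn11 reaches 424 to 427 at day 3, and the 3 points of day 3 lie close together in each panel.

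Total counts per library ran from 14299679 to 24022923, and the 9 members took 1.06 to 1.26% of them. Day 0 replicate 1 and day 21 replicate 2 stood apart from the other libraries of their day, with limma voom sample weights of 0.354 and 0.0583, against 1.02 to 2.03 for the other 7. The 3 day 3 libraries, and day 0 replicates 2 and 3, differed from each other by little more than counting noise. Per gene, the median chi-square of such a pair was 0.802 to 0.900, where counting noise alone gives 0.455 and the pairs with the libraries that stood apart gave 2.93 to 14.15. Among the members, Cnp had a coefficient of variation of 0.137% between day 3 libraries, below the 0.941% that counting alone would give. The mean chi-square of those close pairs, 6.92 to 8.02, lay above the value of 1 for counting noise, which does not show whether they are separate animals. The libraries were kept as separate samples, and results were also computed with the close libraries summed into 1 sample.

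At day 3 the central myelin genes were mostly lower than at day 0, by unequal amounts. By edgeR's quasi-likelihood test with Benjamini-Hochberg adjustment over 16494 genes (called at an adjusted p under 0.05), 6 of the 9 fell (Opalin, Mog, Cnp, Ermn, Mag and Mal), 1 rose (Cldn11), and Mbp and Mobp were not called. Of all genes tested, 19.5% were called lower and 24.8% higher. The median log2 fold change of the 9 members was -0.48, and that of all genes tested was 0.01.

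Opalin, a transmembrane glycoprotein made almost only by oligodendrocytes, measured 36.6, 33.9 and 36.1 FPKM in the day 0 libraries and 16.1, 16.3 and 18.02 FPKM in the day 3 libraries. All 3 day 3 libraries lay below all 3 of day 0. The log2 fold change was -1.14 ± 0.19 (SE, edgeR adjusted p = 0.00106), the largest fall among the members.

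Ermn encodes ermin, a cytoskeletal protein of late myelination. It measured 50.4, 49.4 and 52.1 FPKM at day 0 and 37.0, 38.6 and 37.0 FPKM at day 3, again without overlap. Its log2 fold change was -0.48 ± 0.16 (edgeR adjusted p = 0.0315).

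Mog lies on the outermost surface of the sheath. It measured 186, 117 and 117 FPKM at day 0 and 83.8, 88.0 and 83.9 FPKM at day 3, so that the day 0 mean was raised by replicate 1 but all 3 day 3 libraries lay below the other 2. The log2 fold change was -0.76 ± 0.21 (edgeR adjusted p = 0.0167).

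Mag, the adhesion molecule that faces the axon at the innermost turn, measured 133, 110 and 112 FPKM at day 0 and 88.1, 87.2 and 89.7 FPKM at day 3. The groups did not overlap, and the log2 fold change was -0.48 ± 0.11 (edgeR adjusted p = 0.00544).

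Cnp, a phosphodiesterase of the cytoplasm-filled channels of the sheath, measured 217, 161 and 160 FPKM at day 0 and 125.2, 124.9 and 125.0 FPKM at day 3. Mal, a proteolipid that sorts membrane cargo, measured 230, 191 and 195 FPKM at day 0 and 165, 167 and 164 FPKM at day 3. In both genes day 0 replicate 1 was the highest library and the groups did not overlap. The log2 fold changes were -0.57 ± 0.16 for Cnp (edgeR adjusted p = 0.0164) and -0.36 ± 0.11 for Mal (0.0220).

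Cldn11, the claudin of the tight junction strands in central myelin, went the other way. It measured 323, 284 and 279 FPKM at day 0 and 427, 424 and 425 FPKM at day 3, with every day 3 library above every day 0 library. The log2 fold change was 0.48 ± 0.08 (edgeR adjusted p = 0.00150), and the call was lost with quantile normalisation of the FPKM (limma adjusted p = 0.0536).

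The basic proteins that compact the sheath were not called. Mobp measured 632, 629 and 626 FPKM at day 0 and 621, 633 and 633 FPKM at day 3, which overlapped. Its log2 fold change was -0.05 ± 0.07 (edgeR adjusted p = 0.600, 95% interval -0.22 to 0.12). Mbp measured 179, 262 and 323 FPKM at day 0 and 249, 255 and 267 FPKM at day 3, and the day 3 libraries lay inside the wide day 0 range. Its log2 fold change was -0.05 ± 0.23 (edgeR adjusted p = 0.888), and the 95% interval, -0.56 to 0.47, holds changes as large as that called for Mag.

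On counts relative to the library total (CPM) after TMM scaling, which sets libraries level over most genes, 7 members had all day 3 libraries below all day 0 libraries (Mobp among them), 1 had them all above, and Mbp overlapped; of all genes tested, 32.8% lay wholly below and 35.2% wholly above. The number called lower depended on the libraries: it was 3 without day 0 replicate 1 or without day 3 replicate 2, 2 (Opalin and Mag) without day 3 replicate 1 or replicate 3, and 7, with Mobp added, without both libraries that stood apart. Without day 0 replicate 1 the calls of Mog, Cnp and Mal were lost (edgeR adjusted p = 0.0672, 0.0697 and 0.081). Without both libraries that stood apart, 4976 of the 16653 genes tested were called lower. The close libraries were also summed, which leaves 1 sample at day 3 assumed to vary like the others. The members' calls were then lost, and calls over all genes tested became fewer. Opalin and Cldn11 had log2 fold changes of -1.13 and 0.46.

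**Figure D2:**
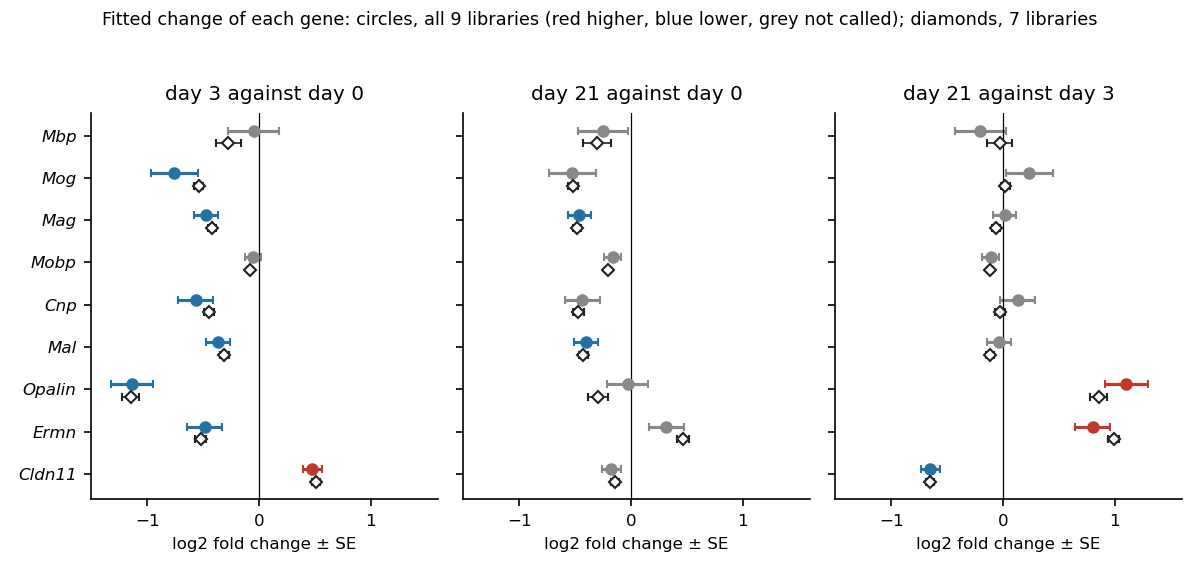
Log2 fold change ± SE of each central myelin gene in 3 comparisons, from the edgeR fit of all 9 libraries (circles: red called higher, blue called lower, grey not called) and of 7 libraries without day 0 replicate 1 and day 21 replicate 2 (diamonds). At day 3 the values run from -1.14 for Opalin to 0.48 for Cldn11; against day 3, Opalin and Ermn lie right of 0 and Cldn11 left of it at day 21.

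In FPKM, the changes moved the make-up of the set more than its sum. The 9 members summed to 1836 to 1988 FPKM at day 0 and 1812 to 1842 FPKM at day 3. These sums take no TMM scaling. The TMM factors were 0.944 to 0.990 at day 0 and 0.995 to 0.996 at day 3. Dividing by them would lower the day 3 sums against those of day 0. Of the summed FPKM Cldn11 made up 15.5% ± 0.800 at day 0 and 23.2% ± 0.277 at day 3. Opalin went from 1.86% ± 0.0347 to 0.917% ± 0.0529, and Mobp held the largest share at both days (33.0% ± 1.24 and 34.4% ± 0.113). Within each library, the ratio of Opalin to Cldn11 FPKM was 0.113 to 0.130 at day 0 and 0.0376 to 0.0424 at day 3.

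At day 21 the libraries of the day differed from each other more than at day 3, and the number of members called against day 0 depended on them. Mag and Mal were called lower, 2 of 9, and 0 were called higher, while 11.3% of all genes tested were called lower and 17.9% higher. At an unadjusted p under 0.05, 4 members were lower and 0 higher by edgeR, DESeq2 called the same numbers as edgeR after adjustment, and limma on log2(FPKM + 1) called 0 in either direction. The median log2 fold change of the members was -0.25, against 0.02 for all genes tested.

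Mag measured 88.3, 108 and 85.6 FPKM at day 21, below every day 0 library. Its log2 fold change from day 0 was -0.46 ± 0.11 (edgeR adjusted p = 0.0107). Mal measured 151, 195 and 161 FPKM at day 21, and its second library lay level with the lower day 0 libraries. Its log2 fold change was -0.40 ± 0.11 (edgeR adjusted p = 0.0216).

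Mog (88.1, 140 and 89.4 FPKM) and Cnp (133, 181 and 120 FPKM) showed the same shape at day 21, with replicate 2 high and the other 2 libraries near their day 3 level. Neither was called against day 0 (log2 fold changes -0.52 ± 0.21, edgeR adjusted p = 0.0937, and -0.44 ± 0.16, 0.0667). Mbp measured 240, 185 and 277 FPKM, with replicate 2 the lowest, and its log2 fold change was -0.25 ± 0.23 (edgeR adjusted p = 0.451).

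Opalin measured 32.9, 51.9 and 29.4 FPKM at day 21, on either side of its day 0 range, and was not called (log2 fold change -0.03 ± 0.18, edgeR adjusted p = 0.920). Ermn measured 72.9, 52.6 and 80.2 FPKM, each above every day 0 library in FPKM, with replicate 2 the lowest (log2 fold change 0.32 ± 0.16, edgeR adjusted p = 0.162). On TMM-scaled counts Ermn overlapped, with replicate 2 (179 CPM) below every day 0 library (185 to 201 CPM). Cldn11 measured 286, 298 and 270 FPKM and Mobp 593, 650 and 596 FPKM, and their log2 fold changes were -0.18 ± 0.08 (edgeR adjusted p = 0.148) and -0.16 ± 0.07 (0.136).

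On TMM-scaled counts, 5 of the 9 members lay wholly below day 0 at day 21 and 4 overlapped, where 20.4% of all genes tested lay wholly below and 22.2% wholly above. Leaving out 1 library changed this comparison most. Without day 21 replicate 2, 7 members were called lower (Mog, Mag, Mobp, Cnp, Mal, Opalin and Cldn11) and 1 higher, Ermn, at a log2 fold change of 0.49 ± 0.06 (edgeR adjusted p = 0.000214). Calls rose over all genes in that fit too, to 3748 lower and 4207 higher of the 16739 tested. Without day 0 replicate 1 the number called lower was 0, without day 0 replicate 3, day 21 replicate 1 or day 21 replicate 3 it was 1 (Mag), and with the close libraries summed it was 0 (2 at an unadjusted p under 0.05).

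**Figure D3:**
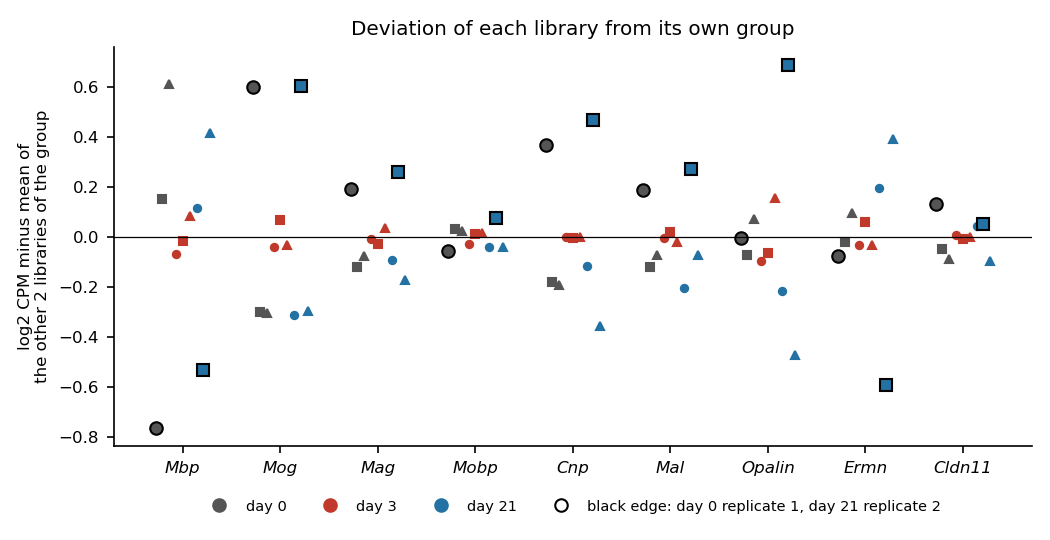
Log2 CPM (TMM-scaled) of each central myelin gene in each library, minus the mean of the other 2 libraries of the same day; colours mark days, circles, squares and triangles mark replicates 1, 2 and 3, and a black edge marks day 0 replicate 1 and day 21 replicate 2. Both marked libraries are high for Mog (0.60 and 0.61) and low for Mbp (-0.77 and -0.53), and the day 3 points lie near 0.

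The libraries that stood apart did so in a set pattern over the members. Day 21 replicate 2 exceeded the mean of its 2 companions by 0.69 log2 units in Opalin, 0.61 in Mog, 0.47 in Cnp, 0.27 in Mal and 0.26 in Mag. It lay below them by -0.59 in Ermn and -0.53 in Mbp, and near them in Mobp (0.08) and Cldn11 (0.05). Day 0 replicate 1 likewise was high in Mog (0.60), Cnp (0.37), Mag (0.19) and Mal (0.19) and low in Mbp (-0.77), but it lay close to its companions in Opalin and in Ermn (-0.08). The ratio of Mbp to Mog FPKM within a library was 0.966 in day 0 replicate 1 and 1.32 in day 21 replicate 2, and 2.24 to 3.18 in the other 7 libraries. What sets these 2 libraries apart was not tested.

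From day 3 to day 21, 2 members rose and 1 fell. Opalin rose by a log2 fold change of 1.10 ± 0.19 (edgeR adjusted p = 0.00291) and Ermn by 0.80 ± 0.16 (0.00564). Cldn11 fell by 0.65 ± 0.08 on the log2 scale (edgeR adjusted p = 0.000635), and the other 6 members were not called. Of all genes tested, 11.7% were called higher and 16.1% lower. This comparison shares its day 3 libraries with the comparison of day 3 with day 0, so a return toward day 0 is not independent of the change at day 3.

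Each of these 3 genes separated day 21 from day 3 in every library, and Mobp also lay wholly lower on TMM-scaled counts, so that 2 members lay wholly above, 2 wholly below and 5 overlapped (19% and 25% of all genes tested). Mag, Mal, Mog and Cnp had log2 fold changes of 0.01, -0.04, 0.23 and 0.13 between these days. The calls of Opalin, Ermn and Cldn11 held in each fit that left out 1 library. With the close libraries summed, 0 of 9 were called (2 higher and 1 lower at an unadjusted p under 0.05), at edgeR adjusted p-values of 0.224, 0.297 and 0.157 for Opalin, Ermn and Cldn11.

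Other genes of mature oligodendrocytes and their myelin moved in both directions at day 3. Of 37 such genes besides the 9 members, 14 fell and 5 rose, with a median log2 fold change of -0.37. Among all genes tested 19.5% fell and 24.8% rose. Gpr37, an orphan receptor of myelinating cells, fell by 1.23 ± 0.10 on the log2 scale (edgeR adjusted p = 1.13e-05). Apod, the lipid carrier apolipoprotein D, which fibroblasts also make, rose by 1.98 ± 0.15 (edgeR adjusted p = 8.35e-06). At day 21, 9 of the 37 were lower than at day 0 and 3 higher, against 11.3% and 17.9% of all genes tested. The counts were 18 and 4 without day 21 replicate 2, where 3748 of 16739 genes tested were called lower and 4207 higher. Without day 0 replicate 1 they were 7 and 0, and with the close libraries summed 0 and 0.

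Among genes for the lipids of myelin, Ugt8a, which makes the galactolipid galactosylceramide, fell from 27.2 ± 2.13 FPKM at day 0 to 15.5 ± 0.186 at day 3 (log2 fold change -0.87 ± 0.15, edgeR adjusted p = 0.00118). Of the 9 galactolipid genes 2 fell at day 3 and 1 rose, near the 19.5% and below the 24.8% of all genes tested, and their median was 0.26, on the other side of 0 from the majority of the calls. Of 10 sterol synthesis genes 6 fell at day 3 and 7 were lower at day 21 than at day 0, with medians of -0.34 and -0.79. Among all genes tested 11.3% were lower at day 21.

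The transcription factors of the lineage did not share 1 pattern. Of 12, 3 fell at day 3 (Olig2, Sox8 and Olig1) and 1 rose, where 19.5% of all genes tested fell and 24.8% rose. Olig2, which specifies the lineage, had a log2 fold change of -0.72 ± 0.13 (edgeR adjusted p = 0.00178). Myrf, which switches on myelin genes, measured 28.1 ± 3.94 FPKM at day 0 and 29.3 ± 0.668 at day 3 (log2 fold change 0.01 ± 0.20, edgeR adjusted p = 0.987). Sox10, its partner, measured 67.8 ± 7.06 and 87.7 ± 3.38 FPKM (log2 fold change 0.32 ± 0.12, edgeR adjusted p = 0.0538).

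Genes of earlier stages of the lineage were called in both directions at day 3, in shares that can be read against the 24.8% higher and 19.5% lower of all genes tested. Of 10 genes of newly formed oligodendrocytes 4 rose and 2 fell at day 3. Gpr17, a receptor of the stage before myelination, measured 13.97 ± 0.526 FPKM at day 0 and 37.7 ± 0.643 at day 3 (log2 fold change 1.38 ± 0.14, edgeR adjusted p = 6.47e-05). Enpp6, of the same list, went the other way (log2 fold change -0.79 ± 0.22, edgeR adjusted p = 0.0158). Of 11 precursor genes 3 rose, among them the proteoglycan gene Cspg4 (1.17 ± 0.12, edgeR adjusted p = 5.23e-05) and the growth factor receptor gene Pdgfra (0.97 ± 0.20, 0.00398). In the other direction 1 fell, Cspg5 (-0.48 ± 0.17, edgeR adjusted p = 0.0432). The median of the precursor list was -0.20, on the other side of 0 from most of its calls. Without day 21 replicate 2, and without both libraries that stood apart, 4 precursor genes were called higher and 6 lower. Calls over all genes rose too, to 5354 higher and 4891 lower of 16739 tested in the first of these fits. The second gave 5408 higher and 4976 lower of 16653. Cspg4 and Pdgfra are also made by pericytes and fibroblasts. At the axon, 5 of 11 genes of the axon-glia junction fell at day 3 and 1 rose, with a median of -0.66, and Cntnap1, the axonal partner of the paranodal loops, had the largest fall (-1.32 ± 0.14, edgeR adjusted p = 8.54e-05).

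**Figure D4:**
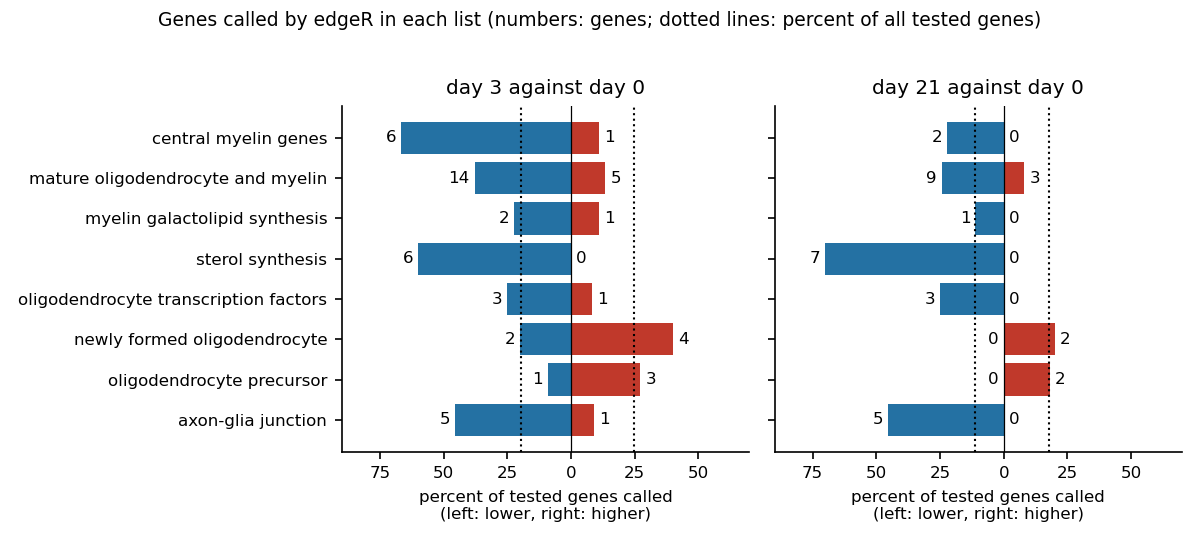
Percent of the tested genes of each list called lower (blue, to the left) and higher (red, to the right) by edgeR at day 3 and day 21 against day 0, with the number of genes at each bar and dotted lines at the percent of all tested genes called in that direction. At day 3 the central myelin genes have 6 called lower and 1 higher, and the 37 other mature oligodendrocyte genes 14 and 5.

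With the close libraries summed, which leaves 1 sample at day 3, calls became fewer in each of these lists and over all genes tested. The median log2 fold changes at day 3 were then -0.37 for the mature, 0.37 for the newly formed and -0.19 for the precursor genes. They were -0.62 for the axon-glia, 0.29 for the galactolipid, -0.37 for the sterol and -0.02 for the transcription factor genes.

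Markers of other cells in the samples changed too, some lists upward and others downward. At day 3, 24.8% of all genes tested were called higher and 19.5% lower. At day 21 against day 0 these shares were 17.9% and 11.3%. The 15 Schwann cell genes summed to 171 to 203 FPKM at day 0, 701 to 718 at day 3 and 308 to 386 at day 21, and 15 of 15 rose at day 3 and 12 of 15 were higher at day 21 than at day 0 (14 and 7 with the close libraries summed). Ngfr, the neurotrophin receptor of Schwann cells that have lost their axon, had a log2 fold change of 4.92 ± 0.17 at day 3 (edgeR adjusted p = 9.53e-08). A list of 14 fibroblast and meningeal genes, added after the rise of Cldn11 had been seen, summed to 49.3 to 51.6, 624 to 630 and 321 to 398 FPKM at the 3 days, with 14 of 14 higher at day 3. No gene of either list was at 0 in every library of a day. The part of these cells in the levels of Cldn11, Mbp, Mag, Cnp, Mal and Sox10 was not tested.

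Phagocyte genes (12 of 12 higher at day 3 and at day 21) summed to 59.4 to 68.5 FPKM at day 0, 1015 to 1038 at day 3 and 818 to 1198 at day 21. Beside the counts given here, 24.8% of all genes tested were higher and 19.5% lower at day 3. At day 21 against day 0 the shares were 17.9% and 11.3%. Neuron genes (9 of 10 lower at day 3 and 7 of 10 at day 21, or 4 and 3 with the close libraries summed) summed to 2816 to 2901, 1265 to 1273 and 1812 to 2126 FPKM. Astrocyte genes summed to 1265 to 1303 FPKM at day 0 and 2661 to 2710 at day 3, with 4 of 8 higher and 3 lower, or 1 and 1 with the close libraries summed. Skeletal muscle genes, a sign of tissue around the cord, summed to 15.6 to 20.9 FPKM at day 0, 7.33 to 7.84 at day 3 and 128 to 251 at day 21. FPKM and CPM are relative to each library's total, and the part of these other cells in the members' relative levels was not tested.

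The members' patterns over the 9 libraries were compared by the root mean square difference of their log2 CPM, each centred on its own mean. Mag and Mal were the closest pair (0.06), followed by Mag and Cnp (0.09) and by Mog and Cnp (0.11). Opalin and Cldn11 lay farthest apart (0.81). Outside the set, among 6875 genes whose average reached 5 FPKM, Aldh9a1 lay nearest to the median of the 9 members (0.03), followed by Psat1, Eml2, Limk2, Trappc9 and Josd1 (0.04 to 0.05), while the median candidate lay at 0.33.

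The nearest genes differed between members. Opalin's nearest were Cd83 (0.13) and Ntm (0.14), and Cd83 too was lower at day 3 (35.2 to 18.1 mean FPKM) and back at 36.3 at day 21. Cldn11's nearest were Srxn1 (0.05) and Tbc1d22a (0.06), Ermn's were Ccp110 (0.06) and Appl1 (0.09), and Mog's were Ndufa9 (0.07) and Ndufv1 (0.09). The remaining members lay nearest to Ggt7 and Trappc9 (Mag), Aldh9a1 and Josd1 (Mal), Yars and Ndn (Cnp), Med16 and 4833439L19Rik (Mobp), and Bcl9 and Sap130 (Mbp), at 0.03 to 0.13. Likeness over 9 libraries of 3 days describes these libraries only.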

How the data were processed

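Gene expression was measured by RNA sequencing of mouse spinal cord in 9 libraries, 3 at each of 0, 3 and 21 days after transection. The authors deposited a table of whole-number counts per gene and, beside them, FPKM. HISAT2 and StringTie are named, without versions or roles, per the submitters' processing notes, which also name a human build although the loci match GRCm38; annotation and strand: not given in the sources used here. Each FPKM equals the count divided by a gene length and the library total (largest deviation 0.00117% over 12001 genes).

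Counts were fitted with edgeR 4.0.16 (R 4.3.3): TMM scaling, filterByExpr, robust quasi-likelihood tests, all 9 libraries in 1 fit with 6 residual degrees of freedom, and Benjamini-Hochberg adjustment over 16494 genes (called under 0.05). Log2 fold changes are the later day minus the earlier, and SE is the fold change over the square root of F. Alternatives were DESeq2 1.42.0, limma 3.58.1 on log2(FPKM + 1) or log2(FPKM + 0.1), other scalings and filters, sample weights, the replicate block and each library left out; 2 were added after seeing the data. The fit was tested on simulated counts: in the first draw the share of false calls exceeded the limit set for it, and the check was then changed to pool several draws, that one included, over which the share lay under the limit.

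The members and the gene lists were chosen with earlier results of these data known. Besides the members, each list named up to 4 called genes of at least 1 FPKM with the largest change per comparison, plus Myrf, Sox10 and Olig2, from which the text takes some; the 2 genes nearest to each member and the 6 nearest to the members' median were named too. Promoters came from RefSeq (GRCm38.p6), exons from GENCODE M21.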

Additional observations from a re-analysis of the deposited data

How the results depend on the processing

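Summing the libraries that differed little beyond counting noise (added after seeing the data; 6 samples, 3 residual degrees of freedom) left 0 members called higher or lower in any comparison, while fold changes stayed close. Calls over all genes tested also became fewer with the libraries summed, in each comparison. At day 3 against day 0, 0 members were called higher with quantile normalisation, and the median was then -0.374 (-0.271 relative to that of all genes, against -0.483 in the edgeR fit). Leaving out 1 library gave 2 to 6 members called lower, 1 called higher in each case, and medians of -0.494 to -0.419.

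At day 21 against day 0 the number called lower was 0 with limma on FPKM (either pseudocount), upper quartile scaling, library totals only or only the 2 groups compared, 1 with quantile normalisation or at least 5 FPKM in 3 libraries, and 7, with 1 higher, with voom sample weights or without both libraries that stood apart (added after seeing the data). Over all genes, 3946 of the 16494 tested were called lower with voom weights and 3920 of 16653 without both libraries. Leaving out 1 library gave 0 to 7 members lower, 0 to 1 higher and medians of -0.326 to -0.209. The median was -0.101 with limma at either pseudocount, -0.122 with library totals and -0.0997 at the 5 FPKM filter. Library totals moved the median of all genes to 0.143, upper quartile scaling to 0.103 and the pseudocount of 0.1 to 0.106; relative to these the members' medians were -0.265, -0.280 and -0.207, against -0.269 in the edgeR fit. Relative medians were smaller with quantile normalisation (-0.117), the 5 FPKM filter (-0.138) and limma at pseudocount 1 (-0.172). Calls in the higher direction made up 76.8% of all calls with library totals, 70.1% with upper quartile scaling and 75.5% with pseudocount 0.1. They made up 61.3% in the edgeR fit, 48% with quantile normalisation, 66.9% at the 5 FPKM filter and 73.7% with limma at pseudocount 1.

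At day 21 against day 3, 3 members were called lower with voom weights and without both libraries. Leaving out 1 library gave 1 lower and 2 higher, with medians of -0.0479 to 0.0692. The median was 0.120 with upper quartile scaling, and turned to -0.0647 with voom weights, -0.0302 without both libraries and -0.00289 with libraries summed.

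The changes of sign were in members not called in that comparison by the edgeR fit of all 9 libraries. Some were called lower without both libraries that stood apart: Mobp at day 3 (-0.0839), Opalin at day 21 against day 0 (-0.295) and Mal at day 21 against day 3 (-0.12). Mbp at day 3 was 0.0531 and 0.0535 with limma at pseudocounts 1 and 0.1, 0.0130 with library totals, 0.0117 at the 5 FPKM filter, -0.274 to 0.171 over the fits that left out 1 library (the highest without day 0 replicate 3) and 0.0731 with libraries summed. Mobp at day 3 was 0.000192 with library totals and 0.00812 at the filter. Opalin at day 21 against day 0 was 0.0537, 0.0540, 0.0649, 0.0990, 0.0498 and 0.109 with limma at both pseudocounts, upper quartile, library totals, quantile and the filter, 0.0504 and 0.115 without day 21 replicates 1 and 3, and -0.301 to 0.115 over all fits that left out 1 library. Mal at day 21 against day 3 was 0.0266, 0.0267, 0.0672, 0.0356, 0.0217 and 0.0451 under the same 6, and -0.138 to 0.0255 over the fits that left out 1 library. Mag was then -0.0647, -0.0789, -0.0611 and -0.00289 with voom weights, without day 21 replicate 2, without both libraries and with libraries summed, and Cnp -0.0114, -0.0437 and -0.0259 under the first 3 (-0.0437 to 0.243 over the fits that left out 1 library). The cause was not tested.

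No pairing of samples by replicate number was seen. Correlations of deviations were -0.258 to 0.152 for same-numbered libraries and -0.276 to 0.303 for the others. With 3 libraries per day, and some that stood apart, they cannot show that the samples were unpaired. With the replicate block, 5 members were called lower at day 3 (Mal was lost) and 1 at day 21 against day 0. Over members and settings, 515 values kept direction and side of the threshold, 53 lost a call, 23 gained one and 30 changed sign.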
